A study of Caenorhabditis elegans with 12 samples.

Results

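The 2 control strains of this study of the C. elegans transcription factor ATTF-6 were compared at the level of their small RNAs: 4 of the 12 small RNA sequencing libraries, 2 from each strain. The members were the 2 libraries labelled as control and the 2 labelled as control for the peak deletions, and every row of their tables entered, keyed on its name and its small RNA class. The auxin controls carried wrdSi51 (II), a transgene written as mex-5p::TIR1::F2A::mTagBFP2, followed by an AID* degron, an NLS and the tbb-2 3'UTR, in which the mex-5 promoter drives the plant F-box protein TIR1 in the germ line, and were moved at the L4 larval stage to plates with 4 mM auxin (indole-3-acetic acid). Auxin lets TIR1 degrade proteins that carry an AID tag, and no endogenous protein of this strain is labelled as tagged. The no-auxin controls carried attf-6::3xflag (I), an epitope tag at the C-terminus of ATTF-6, and their treatment label reads None, although the protocol text attached to them also describes auxin plates. Both groups were whole animals, synchronized as L1 larvae, grown at 20 °C on the bacterium OP50 and harvested as adults, and RNA of all 4 was treated with the polyphosphatase PIR-1 before cloning. Strain, auxin and experiment thus changed together and cannot be told apart in any comparison below. In whole animals, fewer cells of a type and less small RNA per cell cannot be told apart either.

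Several classes of small RNA share the C. elegans germ line and soma. Type I piRNAs (21U-RNAs) are transcribed one by one, mainly from promoters on chromosome IV, as short capped precursors (csRNAs), and guide the Argonaute PRG-1. Type II piRNAs come from the transcription start sites of active genes across the genome. 22G siRNAs are copied from target transcripts by RNA-dependent RNA polymerases and are bound by WAGO Argonautes, which silence, or by CSR-1, which marks expressed germline genes. 26G siRNAs act upstream of them in 2 branches, one that loads ALG-3 and ALG-4 during spermatogenesis and one that loads ERGO-1 in oocytes and embryos. miRNAs are bound by ALG-1 and ALG-2, and many are specific to a somatic tissue or a stage, while the miR-35 family is known from oocytes and embryos. C. elegans hermaphrodites make sperm as late larvae and oocytes as adults.

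Sequences are shown for small RNAs that the study assayed by RT-qPCR, and for an entry whose readings are linked to those of a miRNA. By the study's methods, reads counted for a piRNA could vary in length and start position. The levels below are therefore not counts of these exact sequences alone. The type I piRNA sequences were assembled from the study's designed primer pairs, whose ends overlapped by 3 bases, and the capitals mark bases 2 to 8, the seed. Positions refer to WBcel235.
21ur-4606 (chrIV:16898307-16898327, plus strand): tCCTACTAtcggtctatttcg
21ur-5665 (chrIV:14202798-14202818, plus strand): tTTGTACGgtgcattatgtat
21ur-1496 (chrIV:16697299-16697319, plus strand): tGGATGACtaattttgactaa
21ur-3442 (chrIV:15545438-15545458, minus strand): tACTAGAGtgttgagattgtg
miR-52, bases 1 to 16, the reference of the assay: cACCCGTAcatatgtt
let-7a, an entry of the type II piRNA class, as the deposited table lists it: actatacaacctaCTACCTCa
The 4 piRNAs start with T, the 5′ base of 21U-RNAs, and their seeds differ from one another. The let-7a entry is listed on the strand opposite to the miRNA let-7, and its capitals mark the reverse complement of the let-7 seed. Its listed sequence starts with a and ends with a, so only its reverse complement starts with T, and the strand of the reads counted under it is not shown by the table.

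The tables held 59335 features with a count in at least 1 of the 4 libraries, and 34255 had a mean normalised count of at least 0.5 and were tested. The normalised count is the deposited count scaled by the authors' constant for the library. The summed counts were 31931330 and 18020004 in the auxin controls and 19949905 and 15454564 in the no-auxin controls, so that 3 counts corresponded to between 0.382 and 0.751 normalised counts; levels at or under 3 counts in both libraries of a group are called at the floor. Such limits cover counting error only, since PCR copies were not told apart. edgeR's quasi-likelihood test called 7795 features higher in the auxin controls (22.8% of those tested) and 6253 lower (18.3%) at a Benjamini-Hochberg adjusted p under 0.05. The median log2 fold change (auxin controls minus no-auxin controls) over all tested features was 0.02. Scaling the libraries to their summed miRNA counts moved that median to -0.29 and the share of calls that were higher from 55.5% to 38.1%, so changes smaller than this shift depend on the scale. The 2 groups did not overlap for 69.3% of features, beside 41.0% called in either direction.

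Replicates of a group resembled each other far more than the groups did. The median absolute log2 ratio between the 2 libraries of a group was 0.283 in the auxin controls and 0.270 in the no-auxin controls, against 0.668 between libraries of different groups. Across tested features, as a description over features that are not independent, Pearson's r of log2 normalised counts was 0.979 and 0.980 within groups and 0.885 to 0.896 between them. The classes differed in how far the baseline moved. Transposon siRNAs were the steadiest (between-group ratio 0.388), and tRNA fragments (1.11) and miRNAs (1.04) moved most. For 26G siRNAs, r was 0.927 and 0.899 within groups but only 0.404 to 0.480 between them.

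**Figure D1:**
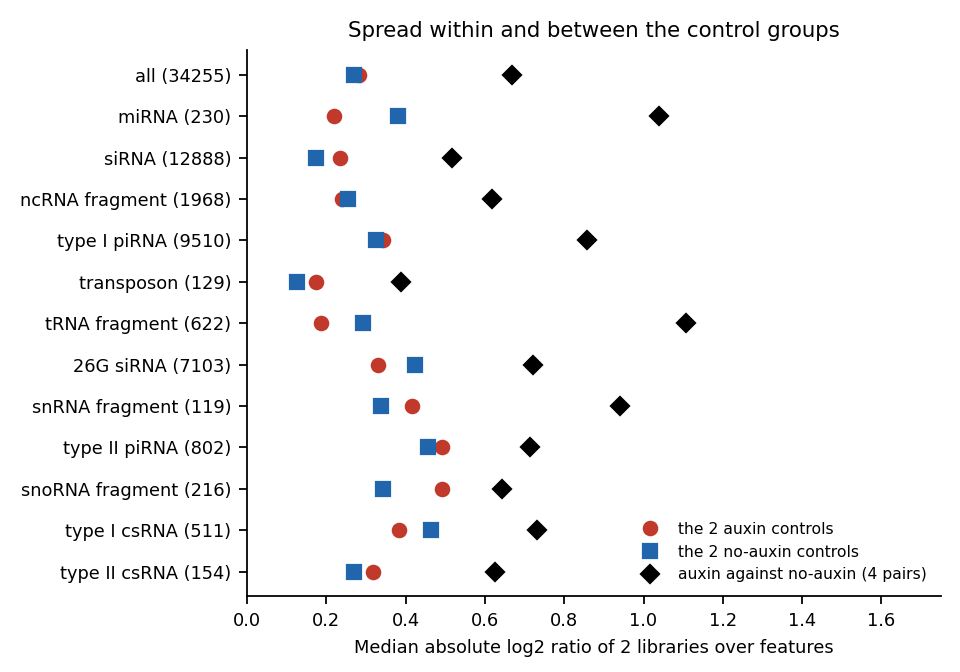
Median absolute log2 ratio of the normalised counts of 2 libraries over the tested features of each class (feature numbers in brackets), for the 2 libraries of each control group and for the 4 pairs across groups. The diamonds (between groups) lie to the right of both within-group points in every class shown, by the most for tRNA fragments (1.11) and miRNAs (1.04).

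Class totals gave the repertoire in outline. Averaged over the 4 libraries, miRNAs made 41.1% of the normalised sum, siRNAs 27.7%, ncRNA fragments 15.7%, type I piRNAs 9.56% and transposon siRNAs 1.97%. Much of the ncRNA share lay on 26 rows that overlap miRNA genes without a row among miRNAs. They held 72.6% and 73.3% of ncRNA fragments in the auxin controls and 60.1% and 59.9% in the no-auxin controls. The 41.1% may therefore understate miRNAs, and how many of those reads were miRNAs was not tested. The miRNA sum was 1805110 and 1822960 in the auxin controls and 1485360 and 1432720 in the no-auxin controls (log2 ratio of means 0.31). The siRNA sum moved the other way, 998286 and 883818 in the auxin controls and 1244690 and 1269120 in the no-auxin controls (log2 ratio -0.42). In neither class did the libraries of the 2 groups overlap. With 2 libraries against 2, a two-sided exact permutation test cannot go below p = 0.33, the value it gave for both.

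Type I piRNAs, the class the study is about, summed to 326582 and 389609 in the auxin controls and 427780 and 374561 in the no-auxin controls, and the groups overlapped (log2 ratio -0.16, exact permutation p = 0.667). Type II piRNAs overlapped as well, at 21727 and 21531 in the auxin controls and 25618 and 21366 in the no-auxin controls. The largest shift of an abundant class was that of tRNA fragments, at 55465 and 60406 in the auxin controls and 18411 and 22558 in the no-auxin controls, a log2 ratio of 1.50. All 26G siRNAs together summed to 43622 and 45244 in the auxin controls and 33960.2 and 38175 in the no-auxin controls (log2 ratio 0.30), a small difference that fell to -0.02 relative to miRNA counts and that held opposite movements of its branches. Reads classed as type I csRNAs summed to 3867 and 4418 in the auxin controls and 7104 and 5932 in the no-auxin controls. The study cloned capped precursors by a separate treatment with phosphatase and pyrophosphatase. These libraries did not have it, so their csRNA sums need not measure capped RNA.

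**Figure D2:**
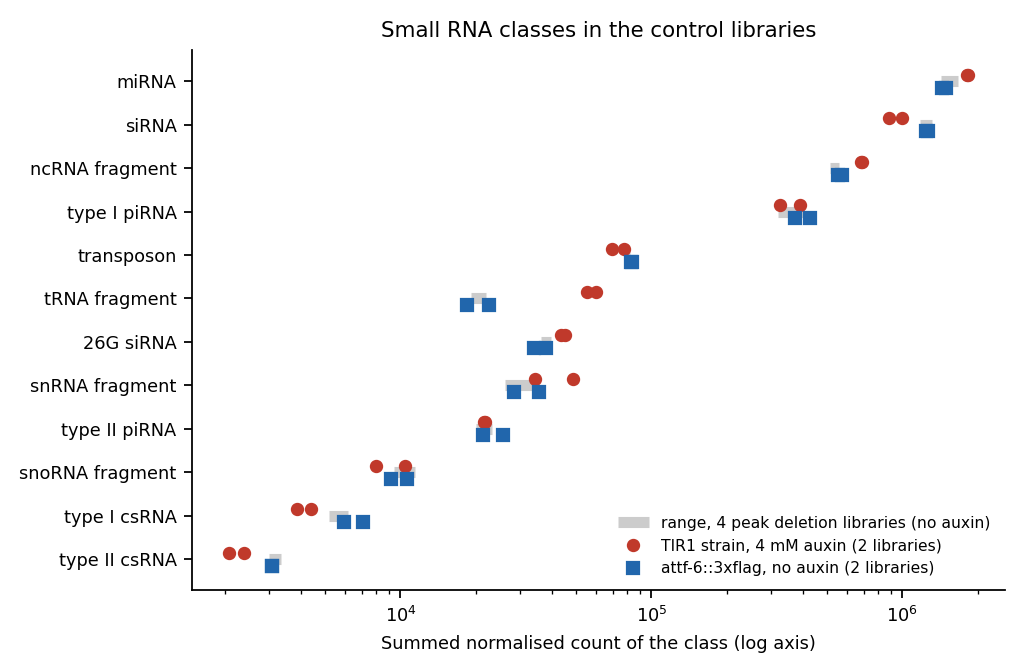
Summed normalised count of each small RNA class (log axis) in the 2 auxin controls (circles) and the 2 no-auxin controls (squares), with the range of the 4 peak deletion libraries, which carry attf-6::3xflag and have the treatment label None, as a grey bar. tRNA fragments are separated most, with auxin controls at 55465 and 60406 and all no-auxin libraries at or below 22558, while the groups overlap for type I and type II piRNAs.

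26G siRNAs of the sperm branch set the groups far apart. Of 1036 tested genes that the tables label ALG (targets of ALG-3 and ALG-4), 974 were called higher in the auxin controls and 0 lower, beside 25.6% higher and 6.86% lower over all 7103 tested 26G siRNA genes. Summed over the list, the level was 12345 and 13539 in the auxin controls and 655 and 579 in the no-auxin controls, 21-fold higher in the auxin controls. On the log2 scale the median gene was 4.67 higher. In the no-auxin controls 671 of these genes were at the floor, and with those set to their bound the median was 3.44. Genes at the floor in a group passed the filter mainly through the other group, so counts over such a list describe it and are not support for its direction. The 4 peak deletion libraries, of the same background as the no-auxin controls, gave 313 to 577, and the 2 ATTF-6 depletion libraries, which share TIR1 and auxin, gave 14919 and 15055.

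The tables also label genes by germline sex. Of 1489 tested genes labelled Spermatogenic, 1223 had more 26G siRNAs in the auxin controls and 36 fewer (median log2 fold change 4.33, or 2.87 with the 892 genes at the floor in the no-auxin controls set to their bound). Of the 862 with both labels 850 were higher and none lower, with 599 at the floor in the no-auxin controls. Of the 627 Spermatogenic genes without the ALG label, 293 were at the floor in the no-auxin controls and 8 in the auxin controls, and the median was 2.67, or 1.21 with these at their bound. Their sum was 5594 and 5833 in the auxin controls and 3487 and 3682 in the no-auxin controls. Genes labelled Oogenic moved little, 18 higher and 68 lower of 873 (median -0.17).

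The 3 largest rises among 26G siRNA genes were all labelled both ALG and Spermatogenic, and all 3 were at the floor in the no-auxin controls, so their folds are lower bounds. Y37F4.1 had 21.4 and 22.0 normalised counts in the auxin controls and none in either no-auxin library (at least 32.4-fold higher, edgeR adjusted p = 4.56e-17). B0379.7 had 18.2 and 23.1 and likewise none (at least 30.8-fold higher, edgeR adjusted p = 1.54e-16). cyc-2.2, which encodes a cytochrome c, had 18.7 and 21.4 against 0.197 and 0 (at least 29.9-fold higher, edgeR adjusted p = 3.88e-16). The groups did not overlap for any of them, and the depletion libraries were again high, at 31.0 and 31.5 for cyc-2.2.

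Major sperm proteins form the cytoskeleton that moves nematode sperm and serve as the hormone that triggers oocyte maturation. Of 12 msp genes tested for 26G siRNAs, 11 were higher and none lower. Their sum was 42.8 and 46.7 in the auxin controls and 1.97 and 1.50 in the no-auxin controls. msp-81, the highest of them, had 9.54 and 13.0 in the auxin controls and 0.197 and 0.250 in the no-auxin controls (at least 16.8-fold, edgeR adjusted p = 7.10e-12). All 12 were at the floor in the no-auxin controls, and the other 16 of the 28 msp genes in the tables were under the filter. The sperm Argonautes were themselves 26G targets: alg-3 had 31.3 and 31.7 in the auxin controls and 2.16 and 1.25 in the no-auxin controls (log2 fold change 4.15 ± 0.30 (SE), edgeR adjusted p = 3.57e-16). For alg-4 the values were 14.8 and 13.9 in the auxin controls and 0.590 and 0.250 in the no-auxin controls (at least 21.4-fold). wago-10, labelled Spermatogenic, was at 3.44 and 3.82 with none in the no-auxin controls, and hrde-1, a nuclear germline Argonaute, rose slightly (0.55 on the log2 scale). Of 15 Argonaute genes tested these 4 were higher (26.7%), near the 25.6% over all tested 26G siRNA genes. The 1 that was lower (6.67%, near the 6.86% over all) was alg-1. It was at 0 and 0.225 in the auxin controls and 0.393 and 1.50 in the no-auxin controls. hrde-1 was no longer called without auxin library 2 (0.0964), no-auxin library 1 (0.131) or no-auxin library 2 (0.211), where the edgeR adjusted p is in brackets, and alg-1 was not called without auxin library 1 (0.370) or no-auxin library 2 (0.466).

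**Figure D3:**
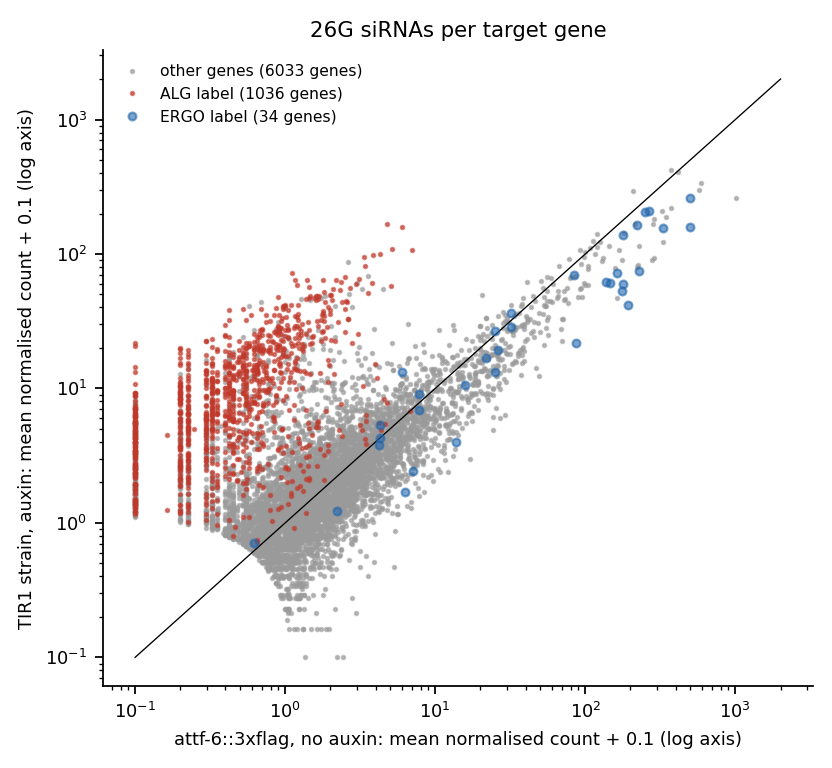
Mean normalised count (plus a small constant, log axes) of 26G siRNAs per target gene in the no-auxin controls against the auxin controls, with genes labelled ALG in red, ERGO in blue and all others in grey; the line marks equal levels. ALG genes form a cloud above the line (974 of 1036 called higher), and ERGO genes lie mostly below it (16 of 34 called lower).

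The ERGO branch went the other way. Among 34 tested genes labelled ERGO, 1 was higher and 16 were lower (median -0.52), and the summed level was 1913 and 2102 in the auxin controls and 3329 and 4423 in the no-auxin controls. No library of one group reached the range of the other. A lower median was not particular to this label. Genes labelled PRG1 gave 64 higher (5.70%) and 306 lower (27.2%) of 1123 (median -0.55), and those labelled WAGO had a median of -0.52. The share called lower was larger among ERGO genes, at 47.1%. The 3 largest falls among all 26G siRNA genes, with a mean of at least 10, were C01A2.1, nipi-4 and bath-10. Of these only C01A2.1 was labelled ERGO, while nipi-4 and bath-10 were labelled WAGO and PRG1. C01A2.1, labelled ERGO and PRG1, had 43.3 and 40.0 in the auxin controls and 168 and 215 in the no-auxin controls (log2 fold change -2.20 ± 0.18 (SE), edgeR adjusted p = 1.50e-15). nipi-4, a gene first described in the epidermal response to fungal infection, had 5.6 and 4.05 in the auxin controls and 23 and 25 in the no-auxin controls (log2 fold change -2.27 ± 0.22 (SE), edgeR adjusted p = 3.08e-10). bath-10, a BTB and MATH domain gene, had 6.74 and 5.84 in the auxin controls and 28.3 and 29.6 in the no-auxin controls (log2 fold change -2.18 ± 0.10 (SE), edgeR adjusted p = 1.26e-10). For these 3 genes both auxin controls lay below both no-auxin controls and below all 4 peak deletion libraries.

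The most abundant 26G targets were long noncoding loci or unnamed genes, and they moved less evenly. linc-11 on chromosome II had 241 and 280.0 in the auxin controls and 892 and 1120.0 in the no-auxin controls (log2 fold change -1.95 ± 0.20 (SE), edgeR adjusted p = 1.04e-14). linc-22 on chromosome X had 429 and 412 in the auxin controls and 366 and 379 in the no-auxin controls and was not called (edgeR adjusted p = 0.399). WBGene00077437 was steady too, at 419 and 389 in the auxin controls and 399 and 433 in the no-auxin controls. K02E2.11 (-0.92 on the log2 scale) and WBGene00045366 (-0.82) were lower in the auxin controls. linc-11 made up 0.551% and 0.619% of all 26G siRNAs in the auxin controls and 2.63% and 2.93% in the no-auxin controls. WBGene00045366 lost its call without no-auxin library 2 (0.0687), with the edgeR adjusted p in brackets.

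Most CSR-1 targets, genes expressed in the germ line, were not called for 26G siRNAs. 413 of 3567 were higher (11.6%) and 42 lower (1.18%), both below the 25.6% and 6.86% over all 26G siRNA genes, with a median log2 fold change of 0.21 that turned to -0.10 under miRNA scaling. WAGO targets had 56 higher and 349 lower (22.9%) of 1521 (median -0.52). Among P granule genes, whose products form the germ granules, 4 of 12 rose (33.3%, little above the background of 25.6%) and none fell, deps-1 from 1.38 and 1.00 in the no-auxin controls to 5.09 and 4.27 in the auxin controls. Of 33 ribosomal protein genes tested 6 were higher (18.2%, below the background), and 22 of the 33 were at the floor in the no-auxin controls. rps-27 rose most clearly, from 0.393 and 0.501 to 10.8 and 10.6 (at least 15.9-fold). No RdRP or mutator gene was called among 13.

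siRNAs in the tables' class of that name, which include the 22G siRNAs, shifted by Argonaute label. Over all 12888 tested genes 11.6% were higher and 26.2% lower in the auxin controls. WAGO targets were lower in 1519 and higher in 114 of 2544 genes (median -0.69), with sums of 420412 and 372887 in the auxin controls and 596524 and 603086 in the no-auxin controls. The list labelled PRG1, genes silenced downstream of piRNAs, had 901 lower and 49 higher of 1325 (median -0.73). Genes labelled CSR moved less, with 934 lower and 69 higher of 3967 (median -0.20). Leaving out no-auxin library 1 or 2 left 361 or 418 CSR genes lower, and without library 1 the count of all genes lower was 2170 against 3377, whereas DESeq2 gave 473 and 2081.

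Genes labelled ERGO had fewer siRNAs in the auxin controls, 24 lower and 4 higher of 37 (median -1.19), the same direction as their 26G siRNAs. Genes labelled ALG were a divided list by level. Of 991 tested, 679 were higher and 64 lower (median 2.49, or 1.64 with the 439 genes at the floor in the no-auxin controls set to their bound), yet the sums were nearly level, 10543 and 9430.5 in the auxin controls and 9144 and 8933 in the no-auxin controls. Among the 166 with a mean of at least 10 normalised counts only 14 were higher and 59 lower. Of the 825 below that level 439 were at the floor in the no-auxin controls and 4 in the auxin controls, so many passed the filter mainly through the auxin controls, and their sum was 3601 and 3240.1 in the auxin controls and 858 and 854 in the no-auxin controls. A separate fit with a stricter filter, a mean of at least 5, which tested fewer of these genes, called 76 higher.

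The genes with the most siRNAs were labelled WAGO or were long noncoding RNAs. linc-22, first in all 4 libraries, had 17312 and 16841 in the auxin controls and 12714 and 14055 in the no-auxin controls and was not called (edgeR adjusted p = 0.0769). linc-29, labelled WAGO and PRG1, had 6802 and 6273 in the auxin controls and 12353 and 11834 in the no-auxin controls (log2 fold change -0.89 ± 0.07 (SE), edgeR adjusted p = 7.78e-06). T09F5.12 (-0.71 on the log2 scale), W09C5.12 (-0.68) and WBGene00009511 (-0.40) were also lower in the auxin controls. The 10 most abundant genes held 7.19% to 7.88% of all siRNAs in each library. linc-22 passed the test without auxin library 1 (0.00637) or auxin library 2 (0.00132) and WBGene00009511 failed it without no-auxin library 1 (0.282) or no-auxin library 2 (0.251), with edgeR adjusted p in brackets.

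Single genes moved by far more than their lists. F14E5.8 on chromosome II, labelled Spermatogenic, had 139 and 140.2 in the auxin controls and 0.590 and 1.25 in the no-auxin controls, 152-fold higher (log2 fold change 7.27 ± 0.34 (SE), edgeR adjusted p = 2.15e-26). Y110A2AL.1, also on chromosome II and labelled PRG1, had 774 and 683 in the auxin controls and 4.91 and 11.3 in the no-auxin controls, 90.0-fold higher (log2 fold change 6.54 ± 0.57 (SE), edgeR adjusted p = 7.99e-29). his-61, a replication-dependent histone gene, had 21.9 and 19.6 in the auxin controls and 0.786 and 0.250 in the no-auxin controls (log2 fold change 5.19 ± 0.40 (SE), edgeR adjusted p = 2.60e-15). None of the 3 came near the auxin level in any library of the attf-6::3xflag background, where F14E5.8 spanned 0.209 to 1.25 and Y110A2AL.1 4.91 to 11.3; in the depletion libraries Y110A2AL.1 was at 33.5 and 26.4, far below the auxin controls as well.

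The largest falls were K08D12.4, T05G5.4 and ZK652.8. K08D12.4 on chromosome IV had 11.3 and 11.5 in the auxin controls and 143 and 139 in the no-auxin controls (log2 fold change -3.63 ± 0.02 (SE), edgeR adjusted p = 1.28e-21). T05G5.4 on chromosome III had 32.1 and 30.6 in the auxin controls and 325 and 281 in the no-auxin controls (log2 fold change -3.27 ± 0.11 (SE), edgeR adjusted p = 2.02e-21), but the 6 libraries of the attf-6::3xflag background spanned 33.8 to 454, so that 1 of them nearly met the auxin controls. ZK652.8 had 3.44 and 3.60 in the auxin controls and 34.8 and 35.8 in the no-auxin controls (log2 fold change -3.33 ± 0.04 (SE), edgeR adjusted p = 1.25e-15). In each gene the 2 groups stood well apart and replicates within a group differed little.

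Gene families were read from their symbols, and the 11.6% higher and 26.2% lower over all siRNA genes are the background for each. Ribosomal protein genes were lower in 31 and higher in 1 of 78 (median -0.52); the exception was rpl-42, which rose from 11.4 and 8.02 in the no-auxin controls to 74.2 and 70.1 in the auxin controls. F-box genes, a large family of ubiquitin ligase adaptors, were lower in 108 and higher in 12 of 271 (median -0.60). fbxa-46 was among the lower ones, at 57.8 and 46.3 in the auxin controls and 259 and 310.1 in the no-auxin controls, and fbxa-224 among the higher, at 172 and 147 in the auxin controls and 32.2 and 22.3 in the no-auxin controls. MATH and BTB genes gave 21 lower and 3 higher of 67, a share near the background.

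Nuclear hormone receptor genes gave 48 lower and 8 higher of 150. nhr-98 fell from 45.8 and 40.6 to 8.53 and 8.54 (no-auxin to auxin controls), and nhr-229 rose from 100.3 and 92.9 to 703 and 592. Histone genes were mixed, 5 higher and 4 lower of 25, and near-identical copies may share reads. his-16 rose from 3.34 and 0.751 to 65.0 and 58.4, and his-37 went from 109 and 101 to 46.8 and 49.0. Vitellogenin genes, the intestine's yolk protein genes, had low levels in every library: 3 of 5 tested were lower in the auxin controls, vit-6 at 5.85 and 4.27 in the auxin controls and 11.8 and 10.8 in the no-auxin controls. vit-1 and vit-4 were the other 2 called lower, whereas vit-2 (edgeR adjusted p = 0.0800) and vit-5 (0.142) were not called and vit-3 was at the floor. With edgeR adjusted p in brackets, vit-4 lost its call without auxin library 1 (0.134), auxin library 2 (0.102), no-auxin library 1 (0.102) or no-auxin library 2 (0.124), and vit-1 without no-auxin library 2 (0.300), while vit-2 gained one without no-auxin library 2 (0.0393).

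Genes of the small RNA pathways themselves are targets of siRNAs. The background for each list is again the 11.6% higher and 26.2% lower over all siRNA genes. Among 21 Argonaute genes 5 were higher (23.8%), all low in level: alg-3 rose from 1.77 and 3.01 in the no-auxin controls to 16.4 and 17.8 in the auxin controls, with alg-4, sago-1, wago-5 and wago-10 beside it. The 4 that were lower (19.0%) were alg-1, ergo-1, nrde-3 and vsra-1. nrde-3, which carries siRNAs into somatic nuclei, went from 38.7 and 42.3 to 21.3 and 14.2. RdRP and mutator genes gave 1 higher (nyn-1) and 4 lower (mut-2, nyn-2, rrf-2, smut-1) of 13 (7.69% and 30.8%). P granule genes gave 1 higher (glh-4) and 2 lower (meg-2, pgl-2) of 13 (7.69% and 15.4%). piRNA transcription and processing factors gave 1 higher (prde-1, 0.45 on the log2 scale) and 1 lower (henn-1, -0.73) of 12 (8.33% each). Apart from the higher Argonautes, these shares were near or below the background. Many of these small changes rested on single libraries, with edgeR adjusted p in brackets. Among Argonautes alg-1 lost its call without no-auxin library 1 (0.0763) or no-auxin library 2 (0.112), ergo-1 without auxin library 2 (0.0643), no-auxin library 1 (0.123) or no-auxin library 2 (0.120), and sago-1 without auxin library 1 (0.0555), auxin library 2 (0.117) or no-auxin library 1 (0.398). mut-2 lost it without auxin library 1 (0.0740), auxin library 2 (0.0553), no-auxin library 1 (0.109) or no-auxin library 2 (0.298), glh-4 without no-auxin library 1 (0.0536) or no-auxin library 2 (0.0895), prde-1 without auxin library 1 (0.111), no-auxin library 1 (0.0885) or no-auxin library 2 (0.390), and henn-1 without no-auxin library 2 (0.0510). The same held, without no-auxin library 1 (0.104) or no-auxin library 2 (0.0616), for nyn-1, and for vsra-1, nyn-2, smut-1, meg-2 and pgl-2 without at least 1 of the 4 libraries.

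The genes that the strains' constructs borrow from, or tag, were looked at one by one. attf-6, tagged in the no-auxin controls, had siRNAs at 218 and 212 in the auxin controls and 212 and 218 in the no-auxin controls, and the groups overlapped (log2 fold change 0.00, edgeR adjusted p = 0.998). mex-5, a germline zinc finger gene whose promoter drives TIR1, had 91.5 and 90.3 in the auxin controls and 133 and 129 in the no-auxin controls (log2 fold change -0.53 ± 0.03 (SE), edgeR adjusted p = 0.00759). tbb-2, a tubulin gene whose 3′ end closes the transgene, had siRNAs at 129 and 105 in the auxin controls and 115 and 88.4 in the no-auxin controls and was not called (edgeR adjusted p = 0.345). Its 26G siRNAs differed: 16.7 and 22.0 in the auxin controls and 2.56 and 1.25 in the no-auxin controls (log2 fold change 3.26 ± 0.45 (SE), edgeR adjusted p = 1.17e-11), with 0.631 to 2.93 over the 6 libraries of the attf-6::3xflag background and 50.2 and 50.3 in the depletion libraries, which carry the same transgene. The tables do not locate reads within a gene, and the part of the transgene was not tested. For mex-5, 26G siRNAs were 3.05 and 2.92 in the auxin controls and 3.93 and 5.26 in the no-auxin controls. This was in the other direction and not called (log2 fold change -0.60, edgeR adjusted p = 0.249). For attf-6, 26G siRNAs were 4.84 and 6.52 in the auxin controls and 3.14 and 3.26 in the no-auxin controls (edgeR adjusted p = 0.0947). The siRNA call of mex-5 did not hold without no-auxin library 1 (log2 fold change -0.50) or no-auxin library 2 (-0.55).

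Type I piRNAs were nearly level as a class, but individual loci were not. Of 9510 tested loci 33.3% were higher and 17.9% lower in the auxin controls. Loci labelled Spermatogenic were higher in 1739 and lower in 81 of 2896 (median 1.30, or 1.15 with the 443 loci at the floor in the no-auxin controls set to their bound), and summed to 62747 and 72639 in the auxin controls and 40224 and 34309.7 in the no-auxin controls. Loci labelled Oogenic went the other way, 268 higher and 562 lower of 1513 (median -0.33), with sums of 90752 and 109784 in the auxin controls and 149123 and 130823 in the no-auxin controls. In both lists the sums of the 2 groups did not overlap. Loci with neither label were split 1159 to 1061 of 5100, and their median of 0.10 turned to -0.21 under miRNA scaling.

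**Figure D4:**
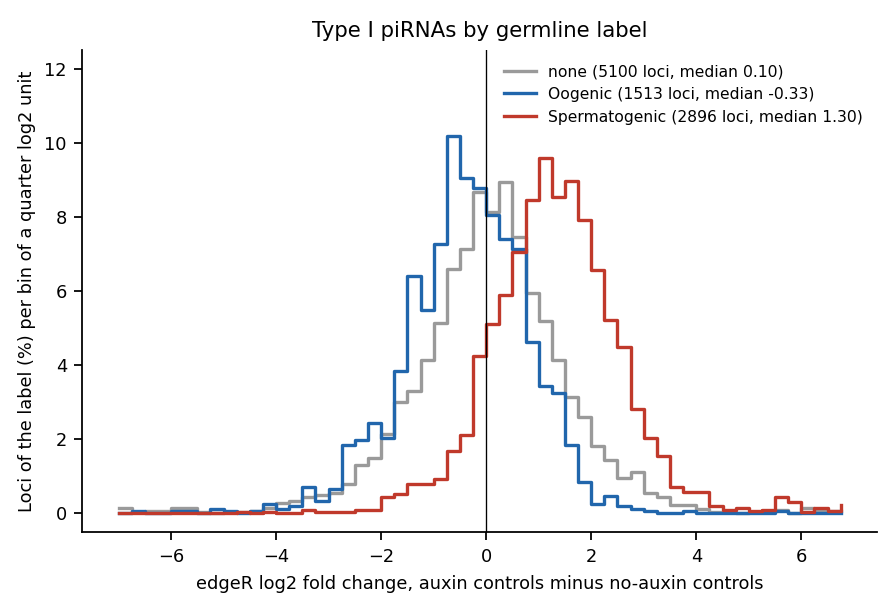
Share of type I piRNA loci (%) per bin (of equal width) of the edgeR log2 fold change, auxin controls minus no-auxin controls, for loci labelled Spermatogenic, Oogenic or neither; values beyond the axis are drawn in the outermost bins. The Spermatogenic curve is centred to the right of 0 (median 1.30), the Oogenic curve to the left (median -0.33), and the loci with neither label near 0 (median 0.10).

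The 2 clusters on chromosome IV, as windowed here, were also unlike. Both windows ended short of the study's right bounds, and that of the smaller cluster also began left of the study's bound. Some loci counted below as elsewhere may therefore lie in the study's clusters. Over all tested type I loci, 33.3% were higher and 17.9% lower. In the smaller cluster, nearer the left end, 630 of 1532 loci were higher (41.1%) and 110 lower (7.18%), with a median of 0.86. In the larger, towards the right end, 2464 of 7767 were higher (31.7%) and 1571 lower (20.2%), near the shares over all loci. Its median of 0.28 turned to -0.03 under miRNA scaling. The 211 tested loci elsewhere gave 72 higher (34.1%, near the share over all loci) and 23 lower (10.9%). Germline label and position were not separated from each other.

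The most abundant type I piRNAs stood lower in the auxin controls, with 1 exception. 21ur-3730, the first of the class, had 4046 and 3814 in the auxin controls and 6215 and 4756 in the no-auxin controls (log2 fold change -0.48 ± 0.20 (SE), edgeR adjusted p = 0.0138). 21ur-2446 had 1913 and 2431 in the auxin controls and 5612 and 5542 in the no-auxin controls (log2 fold change -1.36 ± 0.17 (SE), edgeR adjusted p = 5.76e-10). 21ur-3545 had 600.3 and 940.3 in the auxin controls and 5262 and 3873 in the no-auxin controls (log2 fold change -2.57 ± 0.39 (SE), edgeR adjusted p = 2.63e-17). 21ur-739 was lower too (-0.94 on the log2 scale), and 21ur-3375 was the exception, at 2529 and 2552 in the auxin controls and 1894 and 1550.1 in the no-auxin controls. The 10 most abundant loci held 5.08% and 4.62% of the class in the auxin controls and 7.67% and 7.50% in the no-auxin controls. With edgeR adjusted p in brackets, 21ur-3730 lost its call without no-auxin library 1 (0.470), and 21ur-3375 without no-auxin library 2 (0.228).

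At the extremes, single piRNA loci were close to absent from one group. 21ur-1362, labelled Spermatogenic, had 22.9 and 20.5 in the auxin controls and 0.590 and 1.00 in the no-auxin controls (log2 fold change 4.78 ± 0.24 (SE), edgeR adjusted p = 3.03e-15). 21ur-1328 and 21ur-6256 rose similarly, 19.4-fold and 19.0-fold. In the other direction 21ur-5581 was at the floor in the auxin controls, 0.255 and 0.225, against 30.3 and 19.8 in the no-auxin controls (at least 47.4-fold lower; adjusted p = 6.52e-18 by edgeR). 21ur-11291 had 1.15 and 2.25 in the auxin controls and 105 and 79.9 in the no-auxin controls (log2 fold change -5.87 ± 0.42 (SE), edgeR adjusted p = 8.02e-24). 21ur-8259 had 1.02 and 0.899 in the auxin controls and 38.5 and 36.1 in the no-auxin controls (log2 fold change -5.23 ± 0.08 (SE), edgeR adjusted p = 1.92e-19). For the 3 falling loci every library of the attf-6::3xflag background was above both auxin controls, with a lowest value of 14.4 for 21ur-5581, 63.9 for 21ur-11291 and 10.5 for 21ur-8259.

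The 6 piRNA genes that the study examined singly by quantitative PCR, of RNA or of ChIP DNA, did not move together. The sequences of 4 of them are shown above. 21ur-1496 had 147 and 232 in the auxin controls and 150.0 and 190.4 in the no-auxin controls, and 21ur-5665 had 281 and 534 in the auxin controls and 418 and 423 in the no-auxin controls; the groups overlapped for both and neither was called (edgeR adjusted p = 0.524 and 0.864). 21ur-4606, whose promoter was edited in the study, had 119 and 143 in the auxin controls and 94.1 and 96.9 in the no-auxin controls (log2 fold change 0.45 ± 0.13 (SE), edgeR adjusted p = 0.0256). 21ur-3442 had 1115 and 1239 in the auxin controls and 2224 and 1619 in the no-auxin controls (log2 fold change -0.71 ± 0.24 (SE), edgeR adjusted p = 3.20e-04), and 21ur-2675 was lower as well (-0.55). 21ur-1769, the study's reference piRNA for 21ur-4606, had 66.9 and 53.3 in the auxin controls and 5.50 and 8.52 in the no-auxin controls, 8.57-fold higher (log2 fold change 3.13 ± 0.34 (SE), edgeR adjusted p = 2.28e-16), while all 6 libraries of the attf-6::3xflag background lay in the range 5.23 to 8.52. miR-52, the reference miRNA, has no row of its own in the miRNA class and was not analysed here as a miRNA. These calls depended on single libraries, with edgeR adjusted p in brackets. 21ur-4606 lost its call without auxin library 2 (0.110), no-auxin library 1 (0.222) or no-auxin library 2 (0.159), 21ur-3442 without no-auxin library 1 (0.161), and 21ur-2675 without auxin library 1 (0.129) or no-auxin library 1 (0.154). 21ur-1496 gained one without auxin library 1 (0.00927), and 21ur-5665 gained one in opposite directions without auxin library 1 (0.0362) or auxin library 2 (2.61e-04), whereas 21ur-1769 kept its call in each case.

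Among loci with reads classed as type I csRNAs, which PIR-1 treatment does not select for a cap, 1 stood out. 21ur-1315, labelled Oogenic, had type I csRNAs at 233 and 307 in the auxin controls and 1886 and 1309 in the no-auxin controls (log2 fold change -2.57 ± 0.33 (SE), edgeR adjusted p = 8.33e-18). It made up 6.02% and 6.95% of the class in the auxin controls and 26.6% and 22.1% in the no-auxin controls. 21ur-11964 was lower too, at 237 and 265 in the auxin controls and 623 and 503 in the no-auxin controls, and 21ur-12613 was not called (edgeR adjusted p = 0.103). Among 511 tested loci 5.87% were higher and 21.1% lower. 21ur-12613 passed the test without auxin library 2 (0.00515), its edgeR adjusted p in brackets.

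The type II piRNA class rested on a pair of entries. let-7a had 14682 and 12123 in the auxin controls and 10517 and 8402 in the no-auxin controls, which was 0.993 to 0.996 times the count of the miRNA let-7-5p in each of the 4 libraries. The listed sequence, shown above, is opposite in strand to the let-7 seed, and the level of the entry cannot be told apart from that of the miRNA. 21ur.type2-1 had 5150.4 and 6971 in the auxin controls and 12000 and 10113 in the no-auxin controls (log2 fold change -0.87 ± 0.25 (SE), edgeR adjusted p = 2.27e-05). Without these 2 entries the class summed to 1895 and 2437 in the auxin controls and 3101 and 2851 in the no-auxin controls, with no overlap between groups. Without let-7a alone the log2 ratio of the class was -0.77 in place of -0.12. let-7a itself was called higher (log2 fold change 0.50 ± 0.21 (SE), edgeR adjusted p = 0.0115), but not without no-auxin library 1 (0.0501) or no-auxin library 2 (0.365), again with adjusted p in brackets.

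Of 802 tested type II loci 41 were higher (5.11%) and 139 lower (17.3%). The largest falls with a mean of at least 10 were 21ur.type2-121, at 11.8 and 15.5 in the auxin controls and 112 and 77.1 in the no-auxin controls, 21ur.type2-224 (-2.30 on the log2 scale) and 21ur.type2-1907 (-2.02). The 2 loci at that level that rose most were 21ur.type2-115, at 16 and 27.2 in the auxin controls and 5.50 and 7.26 in the no-auxin controls, and 21ur.type2-408, at 103 and 134 in the auxin controls and 43.3 and 57.2 in the no-auxin controls. Type II csRNAs gave 12 higher and 33 lower of 154 (7.79% and 21.4%).

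miRNAs were mostly higher in the auxin controls: 133 of 230 tested arms were called higher (57.8%) and 24 lower (10.4%), with a median log2 fold change of 0.91, or 0.61 when libraries were scaled to miRNA counts. miR-58a-3p, of the bantam family, was by far the most abundant and did not follow, at 819334 and 786617 in the auxin controls and 928162 and 798527 in the no-auxin controls (edgeR adjusted p = 0.686). It held 45.4% and 43.2% of all miRNA counts in the auxin controls and 62.5% and 55.7% in the no-auxin controls. Its relatives miR-81-3p, at 152589 and 208055 in the auxin controls and 30387 and 26656 in the no-auxin controls (log2 fold change 2.66 ± 0.24 (SE), edgeR adjusted p = 1.00e-17), and miR-82-3p, at 108732 and 94115 in the auxin controls and 37475 and 40762 in the no-auxin controls (log2 fold change 1.37 ± 0.12 (SE), edgeR adjusted p = 1.53e-09), rose. Of 10 tested arms of that family 6 were higher and none lower, about the share of all miRNA arms.

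The let-7 family, which times late larval and adult fates, was higher in all 8 arms. let-7-5p had 14748 and 12172 in the auxin controls and 10583 and 8459 in the no-auxin controls (log2 fold change 0.50 ± 0.21 (SE), edgeR adjusted p = 0.0120). miR-48-5p had 44643 and 41076 in the auxin controls and 18982 and 19744 in the no-auxin controls (log2 fold change 1.15 ± 0.07 (SE), edgeR adjusted p = 6.92e-08). miR-84-5p (0.53 on the log2 scale) and miR-241-5p (0.94) rose with them. None of the 8 arms overlapped between groups, and 79.1% of all 230 tested miRNA arms did not overlap either. miR-237-5p, of the lin-4 family, had 471 and 548 in the auxin controls and 84.3 and 131 in the no-auxin controls (log2 fold change 2.25 ± 0.33 (SE), edgeR adjusted p = 9.04e-16). The edgeR adjusted p, in brackets, missed the threshold for let-7-5p without no-auxin library 1 (0.0515) or no-auxin library 2 (0.370) and for miR-84-5p without no-auxin library 1 (0.205) or no-auxin library 2 (0.0957).

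The miR-51 family, needed for embryonic development, had 6 of 10 arms higher (60%, near the 57.8% of all tested miRNA arms) and none lower, among them miR-56-3p at 32665 and 34930.3 in the auxin controls and 9247 and 11980 in the no-auxin controls and miR-53-5p at 4508 and 4588 in the auxin controls and 769 and 1362 in the no-auxin controls. miR-54-3p overlapped between groups, at 5848 and 6545 in the auxin controls and 5483 and 6982 in the no-auxin controls. In the miR-64 family 8 of 10 arms were higher (80%), led by miR-65-3p at 1201 and 1285 in the auxin controls and 177 and 180.3 in the no-auxin controls (log2 fold change 2.80 ± 0.05 (SE), edgeR adjusted p = 4.39e-20). The miR-72 family gave 3 higher and 1 lower (miR-73-3p, -0.61 on the log2 scale) of 4, and the miR-44 family 1 of each (miR-61-3p and miR-44-5p) of 5. The stress and lifespan miRNAs gave 5 arms higher and 3 lower of 10, beside 57.8% and 10.4% of all arms. miR-34-5p rose from 807 and 1013 in the no-auxin controls to 3153 and 3178, and miR-238-3p from 3469 and 3925 to 11846 and 12556. The arms of a hairpin could part: miR-238-5p was lower (-1.37 on the log2 scale), and miR-239a-5p was lower, at 4463 and 5122 in the auxin controls and 10114 and 10057 in the no-auxin controls, while miR-239a-3p was higher (1.15). miR-239b-5p was the remaining arm called lower (-2.35). miR-73-3p was not called without no-auxin library 2 (0.0786), by its edgeR adjusted p.

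The miR-35 family, made in oocytes and embryos, had 4 of 12 arms lower and 1 higher, beside 10.4% lower and 57.8% higher over all miRNA arms. Its sum was 100733 and 97363 in the auxin controls and 147936 and 189657 in the no-auxin controls, and the groups did not overlap (log2 ratio -0.77). miR-35-3p had 20906 and 20412 in the auxin controls and 17424 and 25788 in the no-auxin controls, and the groups overlapped (edgeR adjusted p = 0.802). miR-37-3p, miR-39-3p and miR-40-3p were not called either (edgeR adjusted p = 0.265, 0.104 and 0.0792). miR-38-3p had 31671 and 26608 in the auxin controls and 88512 and 107549 in the no-auxin controls (log2 fold change -1.75 ± 0.19 (SE), edgeR adjusted p = 2.38e-12). miR-41-3p fell furthest, 145 and 244 in the auxin controls and 2216 and 4842 in the no-auxin controls (log2 fold change -4.19 ± 0.68 (SE), edgeR adjusted p = 2.06e-21), although its 2 no-auxin replicates differed widely, and its other arm, miR-41-5p, was not called (edgeR adjusted p = 0.615). miR-38-5p (-0.51 on the log2 scale) and miR-36-3p (-0.74) were lower, while miR-36-5p was higher (0.60). With edgeR adjusted p in brackets, miR-37-3p passed without auxin library 1 (0.0206), miR-39-3p without auxin library 1 (0.00420) or auxin library 2 (0.00668), and miR-40-3p without auxin library 1 (3.89e-04), auxin library 2 (0.0329) or no-auxin library 2 (0.0245). miR-38-5p lost its call without auxin library 2 (0.157) or no-auxin library 2 (0.295), and miR-36-5p without no-auxin library 1 (0.139).

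**Figure D5:**
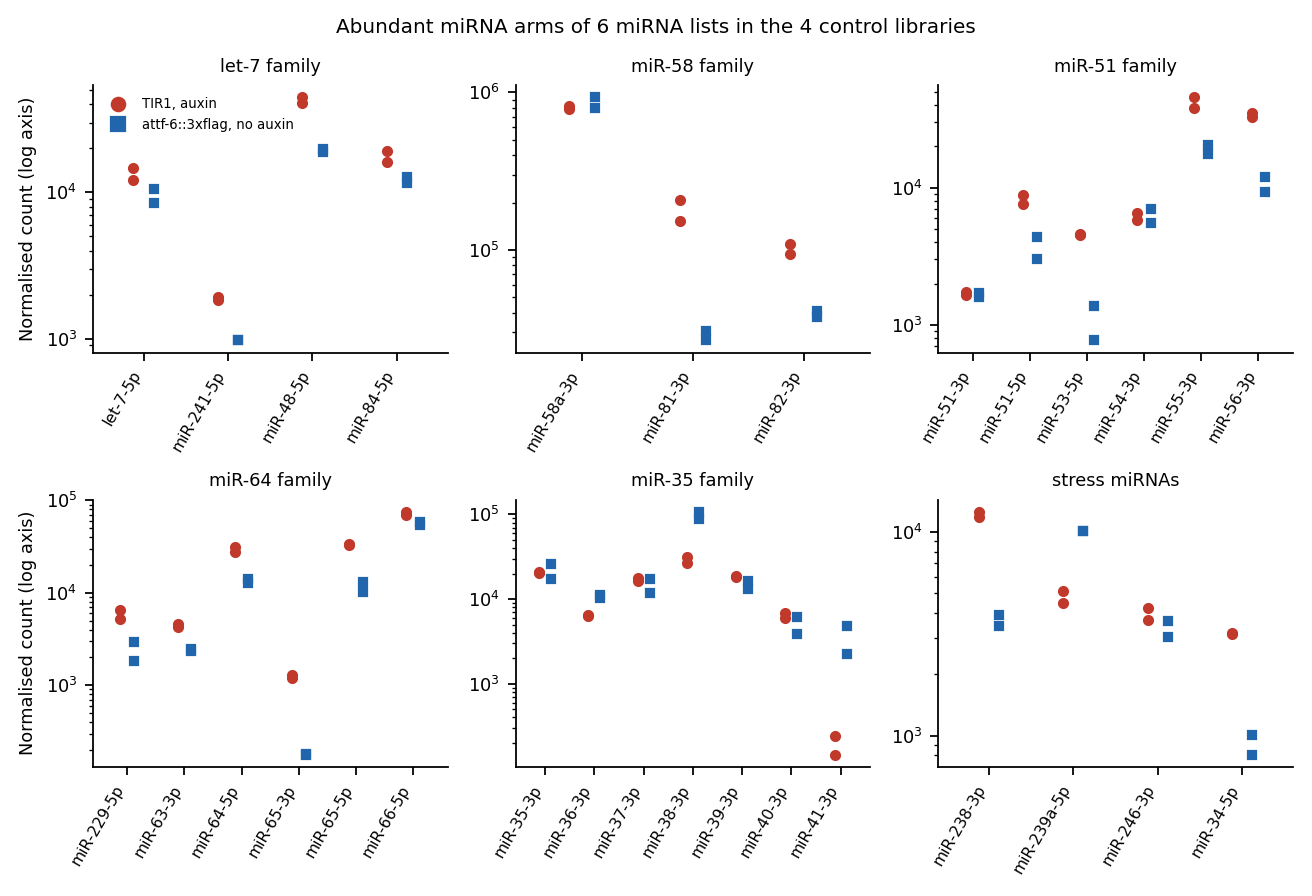
Normalised count (log axis) of the abundant arms in 6 miRNA lists, in the 2 auxin controls (circles) and the 2 no-auxin controls (squares). Auxin controls are higher for every let-7 family arm shown and for miR-81-3p and miR-82-3p, whereas in the miR-35 family miR-35-3p overlaps and miR-38-3p and miR-41-3p are higher in the no-auxin controls.

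The largest single rises were miR-799-3p, at 285 and 302 in the auxin controls and 16.1 and 24.3 in the no-auxin controls (log2 fold change 3.87 ± 0.29 (SE), edgeR adjusted p = 1.35e-22), miR-48-3p and miR-235-3p, a miRNA of the hypodermis, at 1919.6 and 2951 in the auxin controls and 239.8 and 322 in the no-auxin controls (log2 fold change 3.12 ± 0.38 (SE), edgeR adjusted p = 4.28e-20). The largest falls were miR-2214-3p, at 2.67 and 6.29 in the auxin controls and 171 and 153 in the no-auxin controls (log2 fold change -5.30 ± 0.55 (SE), edgeR adjusted p = 2.12e-24), miR-41-3p and miR-1823-3p (-2.64 on the log2 scale). Tissue markers were uneven: miR-228-5p of glia had 4459 and 4657 in the auxin controls and 1051 and 1425 in the no-auxin controls, and lsy-6-3p of a taste neuron had 77.4 and 79.3 in the auxin controls and 77.2 and 81.4 in the no-auxin controls with overlapping groups. The muscle, neuron and intestine markers miR-1, miR-124 and miR-60 have no row in the miRNA class and were not analysed here as miRNAs, nor were lin-4, miR-71 and miR-80.

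ncRNA fragments included loci that overlap such miRNA genes. 79 miRNA genes of the reference annotation had no row among miRNAs, and 26 ncRNA rows overlapped such genes, with the strand of the reads not told apart. These 26 summed to 498967 and 506224 in the auxin controls and 332845 and 344069 in the no-auxin controls and were higher in 15 and lower in 2; over all tested ncRNA rows 25.2% were higher and 14.9% lower. K01F9.6, which overlaps mir-80, had 146291 and 141334 in the auxin controls and 63996 and 62126 in the no-auxin controls (log2 fold change 1.19 ± 0.03 (SE), edgeR adjusted p = 5.54e-08). Y37A1B.335, which overlaps mir-52, had 63950.5 and 65199.9 in the auxin controls and 13810.2 and 22572 in the no-auxin controls (log2 fold change 1.83 ± 0.35 (SE), edgeR adjusted p = 2.73e-12). F16A11.6, over mir-71, was lower in the auxin controls, at 41848 and 35736 in the auxin controls and 75119.8 and 72143 in the no-auxin controls. T09B4.14, over the muscle gene mir-1, was not called, at 102563 and 116425 in the auxin controls and 90115 and 86507 in the no-auxin controls (edgeR adjusted p = 0.142). The other ncRNA rows summed to 187962 and 184702 in the auxin controls and 220983 and 230231 in the no-auxin controls. T09B4.14 was called without auxin library 1 (4.41e-05) or auxin library 2 (0.0379), with edgeR adjusted p in brackets.

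Fragments of tRNAs were higher in 463 of 622 genes (74.4%) and lower in 10 (1.61%). Nuclear tRNAs summed to 50240.3 and 54147 in the auxin controls and 16531 and 20624 in the no-auxin controls, and mitochondrial tRNAs to 5225 and 6259 in the auxin controls and 1880.5 and 1934 in the no-auxin controls, with neither overlapping between groups. WBGene00014456, the first of the class, had 776 and 917 in the auxin controls and 220.0 and 215 in the no-auxin controls (log2 fold change 1.96 ± 0.12 (SE), edgeR adjusted p = 5.50e-15). The counts of these repeated genes were split among copies, so only 0.789% of their rows held whole counts, and the genes are not independent of each other; among rows with whole counts alone 1 was called higher.

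Spliced leader RNAs donate the leader exon of most C. elegans mRNAs. Fragments of all 12 SL1 genes were called higher, but their reads are shared: sls-1.10 had 2485 and 3559 in the auxin controls and 2002 and 2529 in the no-auxin controls (log2 fold change 0.42 ± 0.31 (SE), edgeR adjusted p = 0.0414), with the groups overlapping. Of the 18 SL2 genes 14 were higher and none lower, with sums of 2261 and 2993 in the auxin controls and 1322 and 1862 in the no-auxin controls. The 10 smy genes gave 7 lower and none higher, with sums of 219 and 338 in the auxin controls and 1078 and 1011 in the no-auxin controls. Over all snRNA rows 60.5% were higher and 14.3% lower. Among snoRNA rows, 24.1% were higher and 17.1% lower. R166.7 on chromosome II stood apart, at 58.0 and 135 in the auxin controls and 1092 and 1155 in the no-auxin controls (log2 fold change -3.56 ± 0.61 (SE), edgeR adjusted p = 4.28e-20), while T21F2.3, the most abundant, had 789 and 786 in the auxin controls and 740.4 and 885 in the no-auxin controls with overlapping groups. The sls-1.10 call was lost without auxin library 2 (0.422), no-auxin library 1 (0.511) or no-auxin library 2 (0.0750), with edgeR adjusted p in brackets.

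Transposon siRNAs had the smallest ratio between groups of any class, with 13 of 129 elements higher (10.1%) and 23 lower (17.8%). NeSL-1, a non-LTR retrotransposon and the first of the class, had 6082 and 5562 in the auxin controls and 8854 and 9009 in the no-auxin controls (log2 fold change -0.62 ± 0.07 (SE), edgeR adjusted p = 0.00127). Of 9 Tc DNA transposons, TC4 (-0.62 on the log2 scale) and TC5 (-0.47) were lower and none higher. Cer LTR retrotransposons gave 10 higher and 3 lower of 38, with a median of 0.11 that turned to -0.20 under miRNA scaling. CER1, an element that forms capsid particles in the germ line, had 1648 and 1485 in the auxin controls and 199.7 and 202 in the no-auxin controls, 7.81-fold higher (log2 fold change 2.96 ± 0.08 (SE), edgeR adjusted p = 7.47e-21). The 6 libraries of the attf-6::3xflag background spanned 114 to 202 for CER1, and the 2 depletion libraries, with TIR1 and auxin, had 25 and 16.7. NeSL-1 was not called without no-auxin library 1 (0.0505) or no-auxin library 2 (0.0634), nor TC5 without no-auxin library 1 (0.230) or no-auxin library 2 (0.103), with edgeR adjusted p in brackets.

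The other no-auxin libraries show where the auxin controls lie relative to that background. Of the 7795 features called higher 7477 (95.9%) were above all 6 PIR-1 libraries that carry attf-6::3xflag in both auxin controls, and of the 6253 called lower 5437 (87.0%) were below all 6. Among all 34255 tested features 10149 lay above all 6 and 7591 below. These 6 include the 2 no-auxin controls that made the calls, so only the 4 peak deletion libraries add to the comparison. For tRNA fragments called higher the share was 99.6%, and for type I piRNAs called lower it was 74.6%.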

How the data were processed

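Small RNA libraries of 2 auxin and 2 no-auxin controls were analysed, with 6 other PIR-1 libraries for context. Per the study's methods the authors trimmed reads with Trim Galore, aligned them without mismatch with Bowtie to the WormBase genome and exon junctions, and assigned them with BEDTools; versions were not given in the sources used here. The deposited tables hold an estimated count, fractional where reads were split, and a normalised signal, the count divided by 1 constant per library. The summed counts were 3.87 to 4.06 times that constant, so it was not the table's own sum. Rounded counts went into edgeR 4.0.16 under R 4.3.3, by the quasi-likelihood test (library size = that constant, mean normalised count of at least 0.5, Benjamini-Hochberg over all 34255 features). DESeq2 1.42.0, other scalings, filters and left-out libraries were alternatives. On simulated counts for this comparison, 68% of 100 2-fold and 99% of 100 4-fold changes were recovered. No other feature was changed in the simulation, whereas 41.0% were called in the data. These rates need not hold where so many features differ. All changed features had a mean normalised count of at least 5, so recovery at lower levels was not tested.

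Nothing says that replicates came from separate cultures, so p-values measure only the spread between these libraries. Nothing showed that replicate numbers pair the libraries, and they were not used as pairs. Members and lists were chosen with earlier results of these data known. Named features were the 5 most abundant of each class (3 of small classes), the 3 largest rises and falls among called, non-overlapping features with a mean of at least 10 (for miRNAs, piRNAs, siRNAs and 26G siRNAs), and called members of the lists; examples within lists were picked by level or size. Families were taken from gene symbols, and Argonaute and germline labels from the tables. Gene positions came from the Ensembl WBcel235 annotation.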

Additional observations from a re-analysis of the deposited data

How the results depend on the processing

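The count of features called in the 2 control groups was 14048. A stricter filter (mean of at least 5) gave 9357, with 4345 higher, and DESeq2 gave 9034, with 3746 lower. Scaling to miRNA counts gave 10195 lower. Under the stricter filter the higher calls were 430 for ALG 26G siRNAs, 497 for Spermatogenic 26G siRNAs, 76 for ALG siRNAs, 1102 for Spermatogenic type I piRNAs and 2074 for all type I piRNAs; fewer genes of each list were tested there. DESeq2 gave 429 ALG siRNAs higher, 473 CSR siRNAs lower and 2081 siRNAs lower, and miRNA scaling gave 2351 and 5869 of the last 2. Whole counts alone left 1 tRNA called higher, but only 0.789% of tRNA rows held whole counts and could enter that fit. The log2 class ratios became 0.26 (share of summed counts), 0.36 (TMM) and 0.76 (without miR-58a-3p) for miRNAs, and, relative to miRNA counts, -0.73 for siRNAs, -0.48 for type I piRNAs, 1.18 for tRNAs, -0.015 for 26G siRNAs and -0.43 for type II piRNAs, which were at -0.77 without let-7a. Leaving out 1 library at a time gave 361 to 1265 CSR siRNAs lower, 2170 to 3673 siRNAs lower, and log2 ratios of -0.51 to -0.33 for siRNAs and -0.24 to 0.018 for type II piRNAs. Those of 21ur-5665, not called in the report, ran from -0.58 to 0.35, and it was called at both ends, without auxin library 2 and 1 respectively. The cause of these shifts was not tested beyond what each setting removes. With the replicate number as a block, 7609 features were higher and 5974 lower. Deviations of equally numbered libraries correlated at -0.000289 over 17099 features, which are not independent. No pairing by number was seen, and whether equal numbers shared a preparation was not tested. Of 160 named single features, 31 and 33 changed side of the threshold without no-auxin library 1 or 2, against 18 and 18 without auxin library 1 or 2, 27 under DESeq2 and 18 under miRNA scaling. Depth limits the lowest features, where 3 counts reach up to 0.751 normalised counts.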

Other observations

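Some siRNA lists outside the small RNA pathways were near or below the share over all siRNA genes, 11.6% higher and 26.2% lower. Collagen genes, which build the cuticle, gave 3 higher and 7 lower of 32 tested (9.38% and 21.9%). Single members called lower included col-97 at 7.89 and 6.29 in the auxin controls and 33.4 and 33.3 in the no-auxin controls (log2 fold change -2.20 ± 0.15 (SE), edgeR adjusted p = 2.99e-11) and col-38 at 29 and 25.6 in the auxin controls and 83.9 and 93.2 in the no-auxin controls. Cytochrome P450, UGT and GST genes, which handle foreign compounds, gave 11 higher and 17 lower of 101 tested (10.9% and 16.8%). gst-15 had 9.42 and 6.29 in the auxin controls and 44.8 and 32.1 in the no-auxin controls (log2 fold change -2.25 ± 0.36 (SE), edgeR adjusted p = 1.70e-11), and cyp-31A1 had 69.5 and 60.5 in the auxin controls and 37.9 and 41.6 in the no-auxin controls. Antisense ribosomal siRNAs at rrn-2.1 numbered 11.5 and 23.8 in the auxin controls and 5.31 and 5.51 in the no-auxin controls (log2 fold change 1.65 ± 0.51 (SE), edgeR adjusted p = 1.10e-05), and the Y RNA yrn-1 had fragments at 57.5 and 73.9 in the auxin controls and 42.9 and 51.6 in the no-auxin controls. With edgeR adjusted p in brackets, yrn-1 was not called without auxin library 2 (0.202), no-auxin library 1 (0.375) or no-auxin library 2 (0.0706), nor cyp-31A1 without no-auxin library 1 (0.0629).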
